A study of Homo sapiens with 9 samples.

Results

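The metallothionein genes MT2A, MT1E, MT1F, MT1G, MT1M and MT1X, the zinc-sensing transcription factor gene MTF1, the zinc exporter gene SLC30A1 and the zinc importer gene SLC39A10 were followed across 9 RNA-sequencing libraries. These 9 genes were chosen by name for their place in the zinc response, out of 26485 genes in each deposited table. The choice was made with earlier results of these data known. The libraries come from the MDA-MB-231 line, grown from a human triple-negative breast cancer and long established in culture, which expressed a short hairpin RNA (shRNA) in every group. 3 libraries carried a nonspecific (NS) shRNA, 3 carried ASAH1 shRNA #1 and 3 carried ASAH1 shRNA #2, so the controls also expressed a hairpin. ASAH1 encodes acid ceramidase, which splits ceramide into sphingosine and a fatty acid, and the comparison asks which transcripts differ when it is knocked down. The study was made in a single line with a single control hairpin, and the replicates are labelled biological but not described further, so p-values measure the spread between these libraries.

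Metallothioneins are small, cysteine-rich proteins that bind zinc and copper in the cytoplasm and buffer the free metal. MTF1 binds zinc through its zinc fingers and then activates genes that carry metal response elements in their promoters, among them the metallothionein genes and SLC30A1. SLC30A1 (ZnT1) exports zinc across the plasma membrane, and SLC39A10 (ZIP10) belongs to the importer family that brings zinc into the cytoplasm.

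In hg38 with GENCODE v44, the metallothionein genes lie side by side on chromosome 16. MT2A spans chr16:56608584-56609497 on the plus strand, in 3 exons, and its main transcript is 401 bases long. On the same strand follow MT1E (chr16:56625475-56627112), MT1M (chr16:56632659-56633981), MT1F (chr16:56657731-56660698) and MT1X (chr16:56682470-56684196), while MT1G (chr16:56666730-56668065) is on the minus strand. MTF1 (chr1:37809574-37859592, minus strand, 11 exons) and SLC30A1 (chr1:211571568-211579161, minus strand, 2 exons) are on chromosome 1, and SLC39A10 (chr2:195575977-195737702, plus strand, 10 exons) is on chromosome 2. Because the metallothionein genes are near copies of each other, each 76-base stretch of their transcripts, the length of a read, was looked up in all other annotated transcripts. MT2A, MT1F and MT1M shared 0 such windows with a gene elsewhere, MT1E shared 1.49% with MT1G, MT1G shared 6.27% with MT1X and the pseudogene MT1XP1, and MT1X shared 7.90% with MT1G and MT1XP1. Of the 4 tested metallothionein members, MT1X thus had the largest share of such windows, and in this annotation an unnamed gene also overlaps it on its own strand. The authors counted on UCSC annotation, and what these reads contribute was not tested.

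The promoters are shown because the members differ in how many copies of the metal response element core they hold. RefSeq promoter sequence (GRCh38.p14) was matched for 5 of the 9 members, with MT1E, MT1F, MT1G and MT1M not among them. The 250 bases before the RefSeq start are given 5′ to 3′ on the gene's own strand. Capitals mark matches, on either strand and with overlaps counted, to the core written as TGCACNC or TGCGCNC.
MT2A, chr16:56608334-56608583 (plus strand): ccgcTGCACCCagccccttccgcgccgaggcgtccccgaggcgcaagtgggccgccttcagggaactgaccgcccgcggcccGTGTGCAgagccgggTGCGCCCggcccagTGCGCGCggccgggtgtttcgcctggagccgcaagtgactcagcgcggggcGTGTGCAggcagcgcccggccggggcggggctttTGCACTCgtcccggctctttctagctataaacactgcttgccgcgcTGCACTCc
MT1X, chr16:56682220-56682469 (plus strand): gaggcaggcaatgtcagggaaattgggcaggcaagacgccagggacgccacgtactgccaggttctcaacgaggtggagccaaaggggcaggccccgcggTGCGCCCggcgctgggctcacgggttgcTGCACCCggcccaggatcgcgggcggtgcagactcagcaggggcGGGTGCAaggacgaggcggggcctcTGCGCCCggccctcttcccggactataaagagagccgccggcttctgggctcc
SLC30A1, chr1:211579162-211579411 (minus strand): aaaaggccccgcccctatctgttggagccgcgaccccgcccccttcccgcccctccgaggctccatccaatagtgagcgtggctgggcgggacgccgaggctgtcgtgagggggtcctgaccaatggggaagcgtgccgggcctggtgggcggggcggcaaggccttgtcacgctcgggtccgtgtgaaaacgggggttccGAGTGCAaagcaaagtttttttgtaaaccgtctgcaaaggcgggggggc
MTF1, chr1:37859593-37859842 (minus strand): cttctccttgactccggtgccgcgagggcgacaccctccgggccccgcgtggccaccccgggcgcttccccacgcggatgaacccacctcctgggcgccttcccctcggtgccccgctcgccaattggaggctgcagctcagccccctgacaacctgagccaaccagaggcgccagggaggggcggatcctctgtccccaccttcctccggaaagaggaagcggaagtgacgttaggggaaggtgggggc

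The MT2A window held 7 matches, the leftmost at base −246 and the rightmost at base −8 from the start, and the MT1X window held 4, between bases −150 and −53. SLC30A1 had 1 match at base −49. MTF1 and both RefSeq start windows of SLC39A10 had 0 matches. Among 35116 promoter windows of the same length, 24.8% held at least 1 match, 0.37% held at least 4 and 0.0313% (11 windows) held at least 7. A match to these letters is a description of the sequence and not a measured binding site. Whether the matches relate to the changes in expression was not tested.

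The reads assigned to genes came to between 23806003 and 49659106 per library. The targeted gene checked the labels: ASAH1 had 4436 to 4518 normalized counts with NS shRNA and 1268 to 1365 with ASAH1 shRNA #1, against 762 to 807 with ASAH1 shRNA #2, whose NS shRNA values were 4787 to 4898. The line's labels were checked by markers, in CPM (recovered reads scaled by TMM to a common library size) with NS shRNA. VIM, CD44, EGFR, CAV1 and AXL, expected in the line, lay between 105 and 2036. Of 6 genes expected to be low, ESR1, PGR and FOXA1 lay at 0.0493 or less. Against expectation, ERBB2 (98.3), GATA3 (21.9) and EPCAM (22.6) were detected, with ERBB2 near EGFR (105). Of the 5 expected markers, EGFR and AXL were higher and VIM and CAV1 lower with either hairpin (adjusted p below 0.05, limma). Of those expected to be low, ERBB2 was lower and EPCAM higher with either hairpin. GATA3 was lower with ASAH1 shRNA #1 and higher with ASAH1 shRNA #2 (adjusted p below 0.05, limma). Whether these changes bear on the zinc genes was not tested.

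The comparisons with NS shRNA use the normalized count: reads on a gene, scaled by 1 size factor per library, with the factors set by the authors separately in each table. NS shRNA libraries therefore have slightly different values beside ASAH1 shRNA #1 and beside ASAH1 shRNA #2, and since both comparisons share these 3 control libraries they are not independent. A gene was called changed at an adjusted p below 0.05 (limma on log2(normalized count + 1), Benjamini-Hochberg over all genes tested). Of the 9 members, 7 passed the filter of a mean of at least 10 normalized counts, and MT1G and MT1M did not.

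With ASAH1 shRNA #2, the 4 tested metallothionein members all fell, MTF1 rose, SLC39A10 fell and SLC30A1 was not called. With ASAH1 shRNA #1, MTF1 rose and SLC39A10 fell as well, while of the metallothionein members MT1F fell, MT1X rose slightly and MT2A and MT1E were not called. The MT1X call with ASAH1 shRNA #1 held in only 10 of 17 alternative fits. In numbers, 4 of the 7 tested members were called with ASAH1 shRNA #1, against 66.1% of all 14341 genes tested, 2 of them higher (32.8% of all genes) and 2 lower (33.3%). With ASAH1 shRNA #2, 6 of 7 were called, against 66.9% of 14250 genes, 1 higher (33.5%) and 5 lower (33.4%). The median log2 fold change of the 7 was −0.02 with ASAH1 shRNA #1 and −0.70 with ASAH1 shRNA #2, while the medians of all genes tested were 0.00 and 0.01. Since most genes tested were called in either comparison, being called does not by itself set a member apart.

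**Figure D1:**
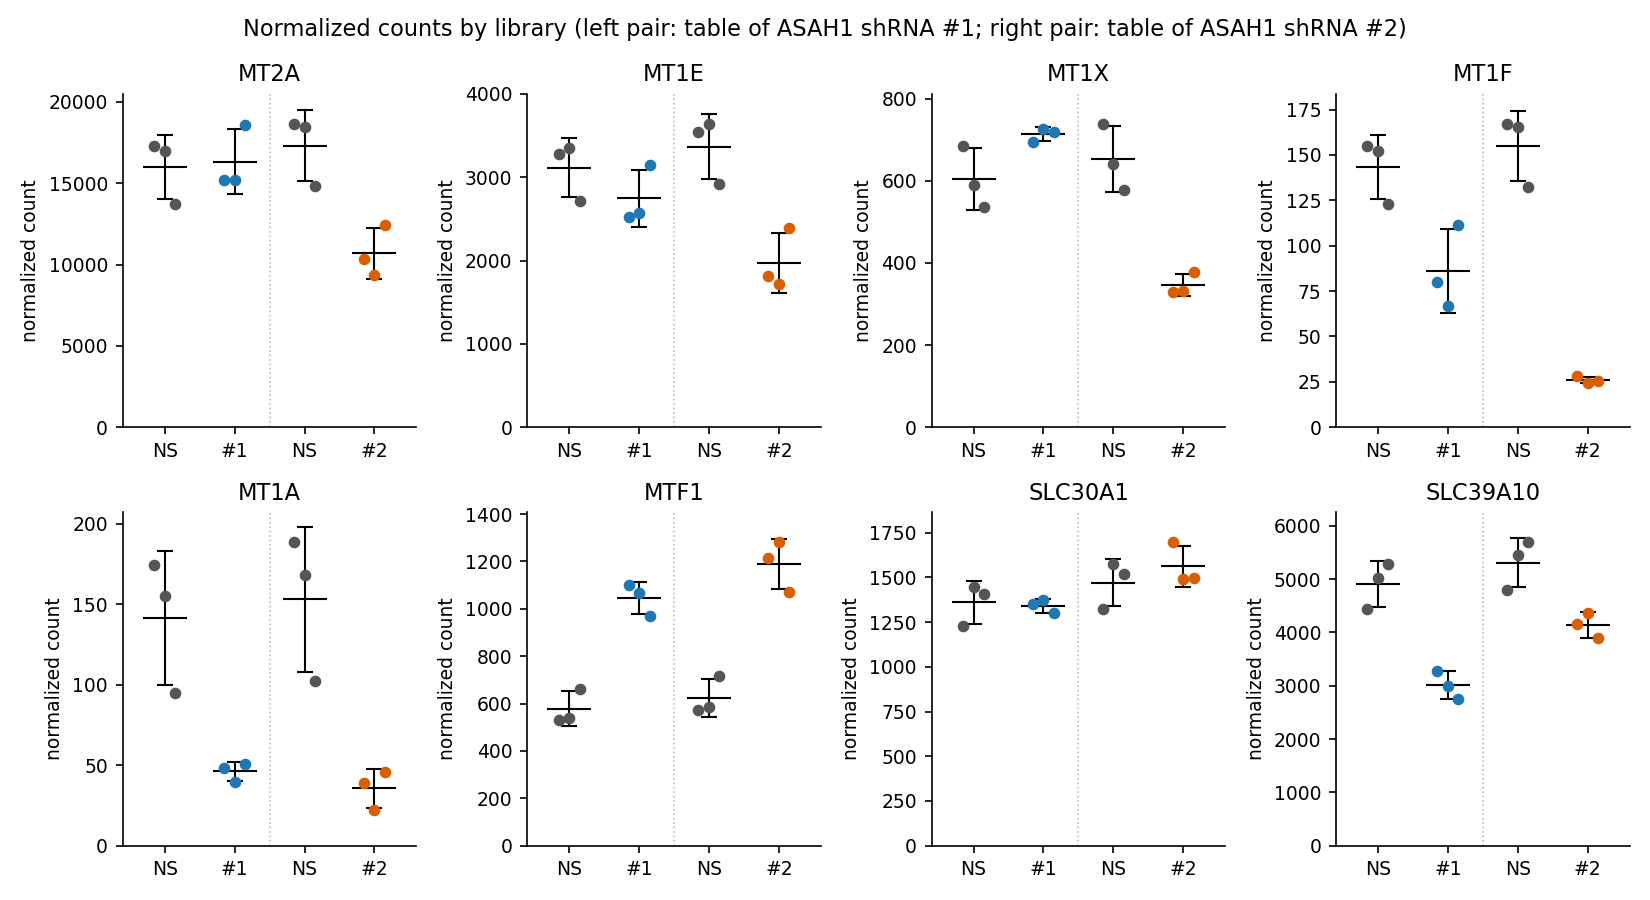
Normalized counts (vertical axis, from 0) of the 7 tested members and of MT1A, another metallothionein gene, in each library. Points are libraries and bars are the mean ± SD of 3. The left pair in each panel is NS shRNA and ASAH1 shRNA #1 in their table, and the right pair is NS shRNA and ASAH1 shRNA #2 in theirs. MT2A with ASAH1 shRNA #2 lies between 9353 and 12415, below the NS shRNA libraries at 14819 to 18649, while with ASAH1 shRNA #1 the groups overlap.

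MT2A, the most abundant metallothionein transcript here, had 17283, 17008 and 13745 normalized counts in the NS shRNA libraries and 15207, 15176 and 18608 with ASAH1 shRNA #1. The groups overlapped, and the log2 fold change of 0.03 (SE 0.10, 95% interval −0.20 to 0.26) was not called (adjusted p = 0.814, limma). In the other table the NS shRNA libraries had 18649, 18463 and 14819 normalized counts and the ASAH1 shRNA #2 libraries 10311, 9353 and 12415. Every ASAH1 shRNA #2 library was below every NS shRNA library. MT2A fell 1.62-fold with ASAH1 shRNA #2 (log2 fold change −0.70, SE 0.11, adjusted p = 0.000241, limma). In bulk RNA, fewer cells with the transcript and less of it per cell cannot be told apart.

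MT1E, the second most abundant metallothionein, had 3279, 3353 and 2709 normalized counts with NS shRNA and 2519, 2575 and 3143 with ASAH1 shRNA #1. These groups overlapped, with a log2 fold change of −0.18 (SE 0.10, adjusted p = 0.142, limma). MT1E was called when NS shRNA replicate 3 was left out (log2 fold change −0.28, adjusted p = 0.0139, limma). It was also called without ASAH1 shRNA #1 replicate 3 (−0.28, adjusted p = 0.0153, limma). Against ASAH1 shRNA #2, the NS shRNA libraries had 3538, 3640 and 2921 normalized counts and the hairpin libraries 1811, 1724 and 2386. Here the groups stood apart. MT1E fell 1.72-fold (log2 fold change −0.78, SE 0.12, adjusted p = 0.000222, limma).

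MT1X was the only member whose fitted change was called in opposite directions. It had 684, 591 and 536 normalized counts with NS shRNA and 695, 726 and 720 with ASAH1 shRNA #1. The lowest hairpin library was just above the highest NS shRNA library. The rise was small, at a log2 fold change of 0.25 (SE 0.09, adjusted p = 0.0337, limma). It was not called when NS shRNA replicate 2 (adjusted p = 0.0943) or 3 (0.0980), or ASAH1 shRNA #1 replicate 1 (0.0512), 2 (0.0974) or 3 (0.0611), was left out of the limma fit, nor without the intensity trend (0.0629). In the ASAH1 shRNA #2 libraries MT1X had 329, 332 and 378 normalized counts against 739, 641 and 578 with NS shRNA. The groups were far apart, and MT1X fell 1.88-fold (log2 fold change −0.91, SE 0.11, adjusted p = 2.58e-05, limma).

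MT1F fell with both hairpins. With NS shRNA it had 155, 152 and 123 normalized counts and with ASAH1 shRNA #1 80.2, 66.7 and 111. The groups did not overlap, and MT1F fell 1.68-fold (log2 fold change −0.75, SE 0.19, adjusted p = 0.00616, limma). In the ASAH1 shRNA #2 libraries it had 28.0, 24.3 and 25.6 normalized counts against 167, 165 and 132 with NS shRNA. This was the largest change of any tested member in either comparison. MT1F fell 5.76-fold (log2 fold change −2.53, SE 0.17, adjusted p = 5.58e-07, limma), and 0.884% of all genes tested had a lower fold change.

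MT1M and MT1G, the remaining metallothionein members, were too sparse for the fit. MT1M had 4, 13 and 5 reads in the NS shRNA libraries, against 1, 1 and 3 in those of ASAH1 shRNA #1 and 0, 1 and 0 in those of ASAH1 shRNA #2. Summed over each group and scaled by the size factors, the ratio to NS shRNA was 0.229 (95% exact counting interval 0.0678 to 0.620) with ASAH1 shRNA #1 and 0.0396 (0.00096 to 0.245) with ASAH1 shRNA #2. NS shRNA replicate 2 alone held 13 of the 22 NS shRNA reads. Without it, an alternative added after the reads had been seen, the ratios were 0.373 (0.0983 to 1.24) and 0.0647 (0.00148 to 0.467). These intervals cover counting error only, not the spread between libraries. MT1G had 0 reads in all 3 NS shRNA libraries, which allows up to 0.0304 CPM (3 reads of the group's unscaled total), and a single read in each hairpin group. No difference of MT1G was detectable at this depth.

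The metallothionein family list held 18 genes, 16 of them in the tables and 5 of them tested: MT2A, MT1E, MT1X, MT1F and MT1A. With ASAH1 shRNA #1, 1 of the 5 rose (MT1X, whose call held in 10 of 17 alternative fits) and 2 fell. Of all genes, 66.1% were called (32.8% higher and 33.3% lower). All 5 fell with ASAH1 shRNA #2, against 66.9% called and 33.4% lower among all genes. Their median log2 fold changes were −0.18 and −0.91. MT1A, which is a family gene but not a member, had 175, 155 and 95.1 normalized counts with NS shRNA and 48.1, 39.4 and 50.9 with ASAH1 shRNA #1. Beside ASAH1 shRNA #2, which had 38.8, 22.4 and 45.8, the NS shRNA libraries had 189, 168 and 103. MT1A was lower in every hairpin library than in any NS shRNA library, with log2 fold changes of −1.56 (SE 0.23, adjusted p = 0.000214, limma) and −2.09 (SE 0.29, adjusted p = 9.55e-05, limma).

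Summed over the family, the 3 groups gave 602 ± 75.3 (NS shRNA), 601 ± 71.2 (ASAH1 shRNA #1) and 365 ± 54.9 (ASAH1 shRNA #2) CPM (SD, n = 3). The NS shRNA and ASAH1 shRNA #1 sums overlapped, and the highest ASAH1 shRNA #2 library (426) was below the lowest NS shRNA library (515). MT2A supplied most of this sum in every group: its share of the family's reads was 79.9% ± 0.13 (NS shRNA), 81.9% ± 0.28 (ASAH1 shRNA #1) and 81.8% ± 0.51 (ASAH1 shRNA #2; SD, n = 3).

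MTF1, the zinc-sensing factor, rose with each hairpin. It had 530, 540 and 663 normalized counts with NS shRNA and 1102, 1066 and 971 with ASAH1 shRNA #1. In the other table it had 571, 586 and 715 with NS shRNA and 1215, 1281 and 1073 with ASAH1 shRNA #2. Every hairpin library was above every NS shRNA library. MTF1 rose 1.82-fold with ASAH1 shRNA #1 (log2 fold change 0.86, SE 0.09, adjusted p = 3.49e-05, limma). The rise with ASAH1 shRNA #2 was 1.91-fold (log2 fold change 0.93, SE 0.10, adjusted p = 1.63e-05, limma). The transcript of the activator was thus higher in the ASAH1 shRNA #2 libraries, where 4 metallothionein members were lower. It was also higher with ASAH1 shRNA #1, where MT1F was lower, MT1X slightly higher (a call that held in 10 of 17 alternative fits) and MT2A and MT1E not called.

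SLC30A1, the plasma membrane exporter, had 1226, 1449 and 1408 normalized counts with NS shRNA and 1352, 1372 and 1299 with ASAH1 shRNA #1. Beside ASAH1 shRNA #2, which had 1696, 1494 and 1495, the NS shRNA libraries had 1322, 1572 and 1518. The groups overlapped in both tables. The log2 fold changes were −0.02 (95% interval −0.18 to 0.14, adjusted p = 0.840, limma) with ASAH1 shRNA #1 and 0.09 (−0.10 to 0.27, adjusted p = 0.370, limma) with ASAH1 shRNA #2. A change of more than 0.272 in either direction on the log2 scale lies outside both intervals.

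SLC39A10, the importer, had 4442, 5022 and 5278 normalized counts with NS shRNA and 3275, 2999 and 2761 with ASAH1 shRNA #1. The ASAH1 shRNA #2 libraries had 4154, 4371 and 3897 against 4793, 5451 and 5691 with NS shRNA. Both hairpin groups lay wholly below NS shRNA. SLC39A10 fell 1.63-fold with ASAH1 shRNA #1 (log2 fold change −0.71, SE 0.08, adjusted p = 3.96e-05, limma). For ASAH1 shRNA #2 the level was 0.781 of that with NS shRNA (log2 fold change −0.36, SE 0.07, adjusted p = 0.00144, limma).

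The hairpins were then compared directly on reads of all 9 libraries brought to a common scale (edgeR's quasi-likelihood test). Of the 7 members 5 were called, against 63.3% of 14714 genes tested, 1 higher with ASAH1 shRNA #2 (31.1% of all genes) and 4 lower (32.1%). The 4 lower were the metallothionein members, with log2 ratios of ASAH1 shRNA #2 to ASAH1 shRNA #1 of −0.73 for MT2A (adjusted p = 0.000229), −0.59 for MT1E (0.00189), −1.84 for MT1F (2.71e-05) and −1.16 for MT1X (8.90e-07), all by edgeR. In CPM, MT2A had 456, 460 and 562 with ASAH1 shRNA #1 and 287, 261 and 347 with ASAH1 shRNA #2. MT1X had 20.8, 22.0 and 21.7 with ASAH1 shRNA #1 and 9.16, 9.27 and 10.6 with ASAH1 shRNA #2. The groups did not overlap for either gene.

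SLC39A10 was the member higher with ASAH1 shRNA #2 than with ASAH1 shRNA #1, by 0.34 on the log2 scale (adjusted p = 0.00245, edgeR). MTF1 (0.07, SE 0.09, adjusted p = 0.548, edgeR) and SLC30A1 (0.10, SE 0.07, adjusted p = 0.253, edgeR) were not called between the hairpins, and neither was MT1A (−0.47, SE 0.31, adjusted p = 0.206, edgeR). ASAH1 itself was lower with ASAH1 shRNA #2 than with ASAH1 shRNA #1, by a log2 ratio of −0.88, so the depth of the knockdown and the identity of the hairpin cannot be told apart.

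**Figure D2:**
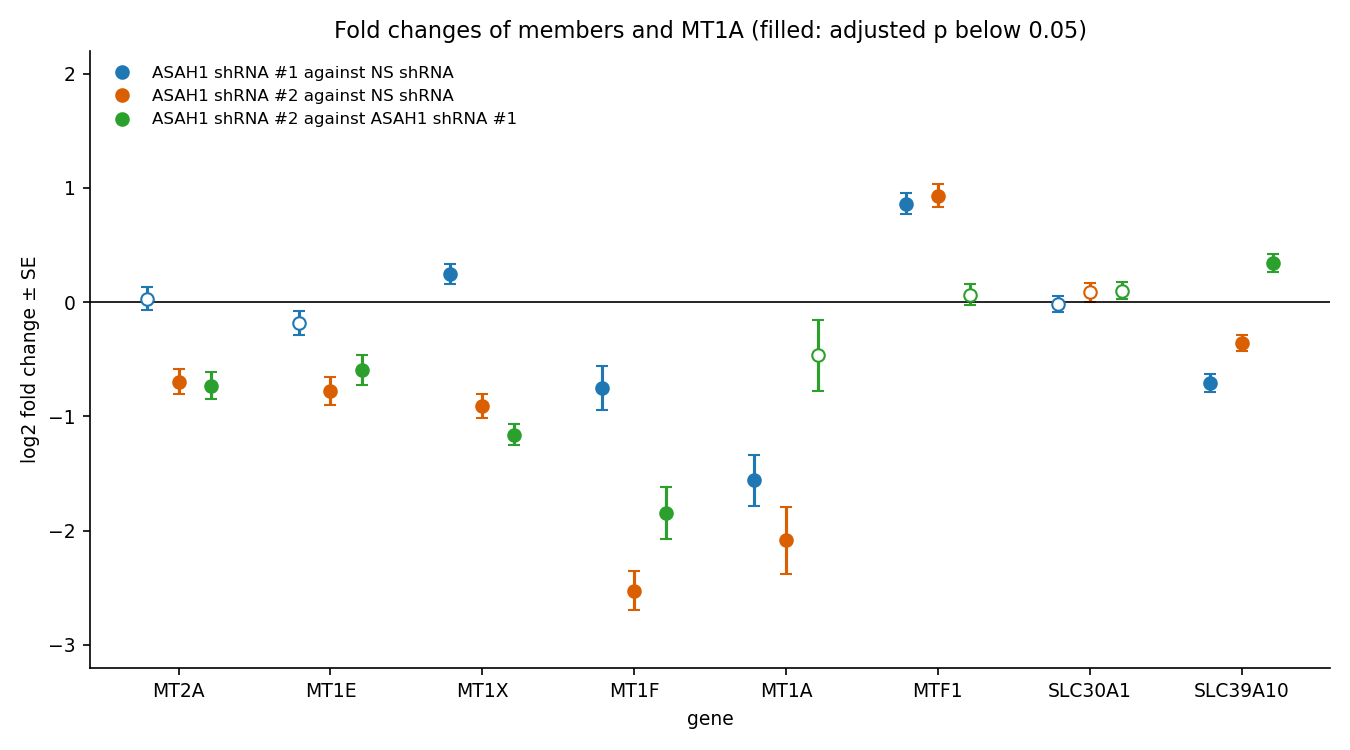
Log2 fold changes (vertical axis) of the 7 tested members and MT1A in the comparisons of each hairpin with NS shRNA and of the hairpins with each other. Bars are standard errors and filled points have an adjusted p below 0.05. MT2A is at 0.03 with ASAH1 shRNA #1 and −0.70 with ASAH1 shRNA #2, while MTF1 is at 0.86 and 0.93.

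Per transcript length, the members spanned a wide range of levels. In CPM per kilobase, NS shRNA libraries had 1201 ± 152 for MT2A, 126 ± 14.7 for MT1E, 44.9 ± 5.63 for MT1X and 28.3 ± 2.43 for SLC39A10 (SD, n = 3). MT1F (10.1 ± 1.29), SLC30A1 (6.94 ± 0.613), MTF1 (2.19 ± 0.272) and MT1M (0.544 ± 0.368) followed. Neighbours in this order did not overlap between libraries, while MT1A (10.8 ± 3.18) overlapped both MT1F and SLC30A1.

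The order shifted among the low genes with the hairpins. With ASAH1 shRNA #2, MT1F had 1.70 ± 0.123 and MTF1 4.18 ± 0.371 CPM per kilobase (SD, n = 3), so that MTF1 stood above MT1F in all 3 libraries. In that group MT1X (23.9 ± 1.91) and SLC39A10 (22.1 ± 1.26) overlapped. With ASAH1 shRNA #1, MT1X had 53.3 ± 1.51 and SLC39A10 17.4 ± 1.42, and MT1F (6.11 ± 1.63) overlapped SLC30A1 (6.86 ± 0.204).

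**Figure D3:**
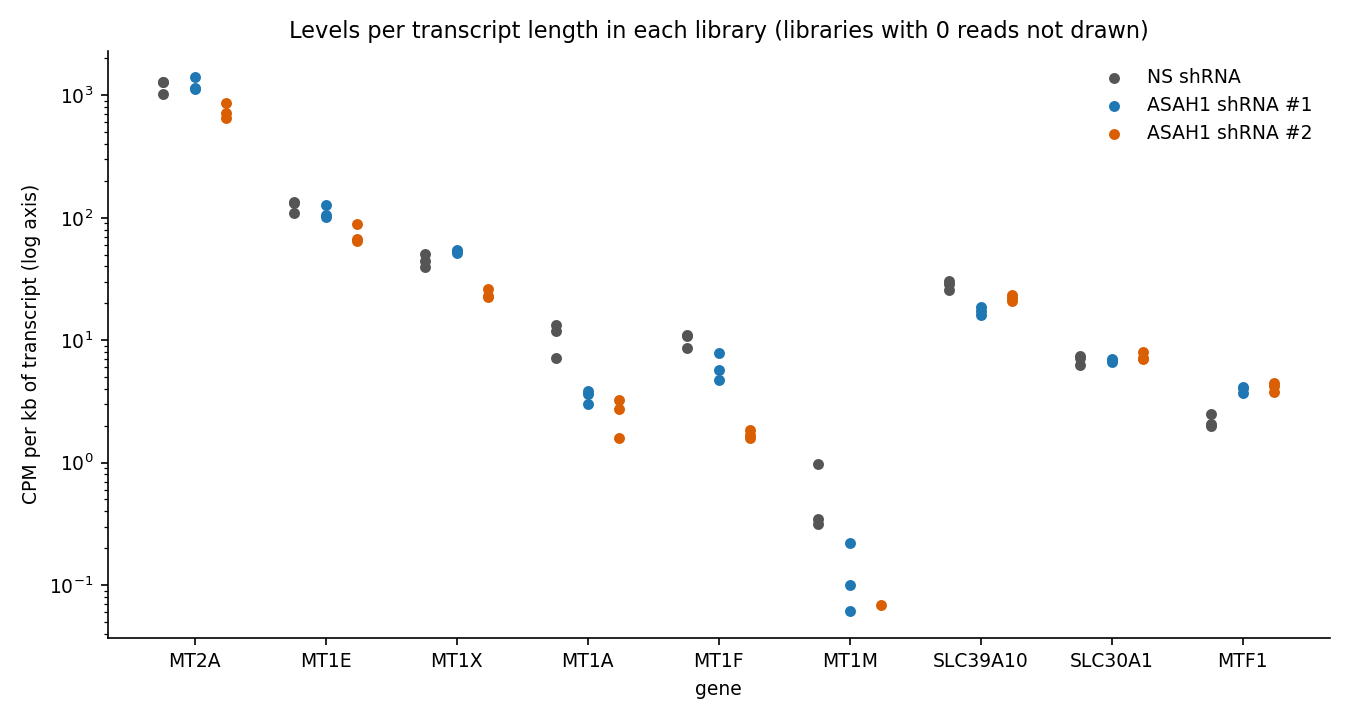
Level of the metallothionein genes MT2A, MT1E, MT1X, MT1A, MT1F and MT1M and of SLC39A10, SLC30A1 and MTF1 in CPM per kilobase of transcript (vertical log axis). Each point is a library, and libraries with 0 reads are not drawn. With NS shRNA, MT2A averages 1201 and MTF1 2.19.

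The zinc exporter list (SLC30A family) held 10 genes, of which 7 were tested. In the comparison of ASAH1 shRNA #1, 1 rose (SLC30A3) and 2 fell (SLC30A5 and SLC30A9), so 3 of 7 were called beside 66.1% of all genes. In that of ASAH1 shRNA #2, 1 rose (SLC30A7) and 1 fell (SLC30A9), so 2 of 7 were called beside 66.9%. The median log2 fold changes were −0.02 and 0.09. SLC30A3 moved far more than these medians, from a low level. It had 14.7, 18.6 and 13.8 normalized counts with NS shRNA and 62.8, 77.9 and 80.7 with ASAH1 shRNA #1. Its log2 fold change was 2.16 (adjusted p = 1.44e-05, limma). With ASAH1 shRNA #2 it was −0.72 and not called (adjusted p = 0.103, limma). SLC30A9, a transporter of mitochondria, was the gene called with both hairpins, at −0.28 each time (adjusted p = 0.00347 and 0.00744, limma).

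The zinc importer list (SLC39A family, 14 genes, 11 tested) moved in both directions. Against NS shRNA, 2 rose and 7 fell with ASAH1 shRNA #1, and 4 rose and 4 fell with ASAH1 shRNA #2. The shares of all genes were 32.8% higher and 33.3% lower with ASAH1 shRNA #1, and 33.5% and 33.4% with ASAH1 shRNA #2. The median log2 fold changes of the list were −0.28 and 0.03. SLC39A14 (ZIP14), a plasma membrane importer of zinc and iron, rose the most of this list. It had 4903, 5398 and 5657 normalized counts with NS shRNA and 9499, 9868 and 9256 with ASAH1 shRNA #1, a log2 fold change of 0.84 (adjusted p = 1.83e-06, limma). In the ASAH1 shRNA #2 libraries it had 11625, 11754 and 11429 against 5291, 5859 and 6099 with NS shRNA, a log2 fold change of 1.02 (adjusted p = 2.65e-07, limma). It thus rose where SLC39A10 fell.

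Like SLC39A10, the importers SLC39A11 (log2 fold changes −0.37 and −0.97), SLC39A13 (−0.24 and −0.53) and SLC39A9 (−0.45 and −0.32) fell with both hairpins. SLC39A7 (ZIP7), which releases zinc from the endoplasmic reticulum, had log2 fold changes of −0.37 with ASAH1 shRNA #1 and 0.44 with ASAH1 shRNA #2. SLC39A8 (ZIP8), a plasma membrane importer, had −0.28 and 0.54. For this pair the hairpins differed from each other by 0.81 on the log2 scale for either gene (adjusted p = 8.89e-06 for SLC39A7 and 1.13e-07 for SLC39A8, edgeR).

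**Figure D4:**
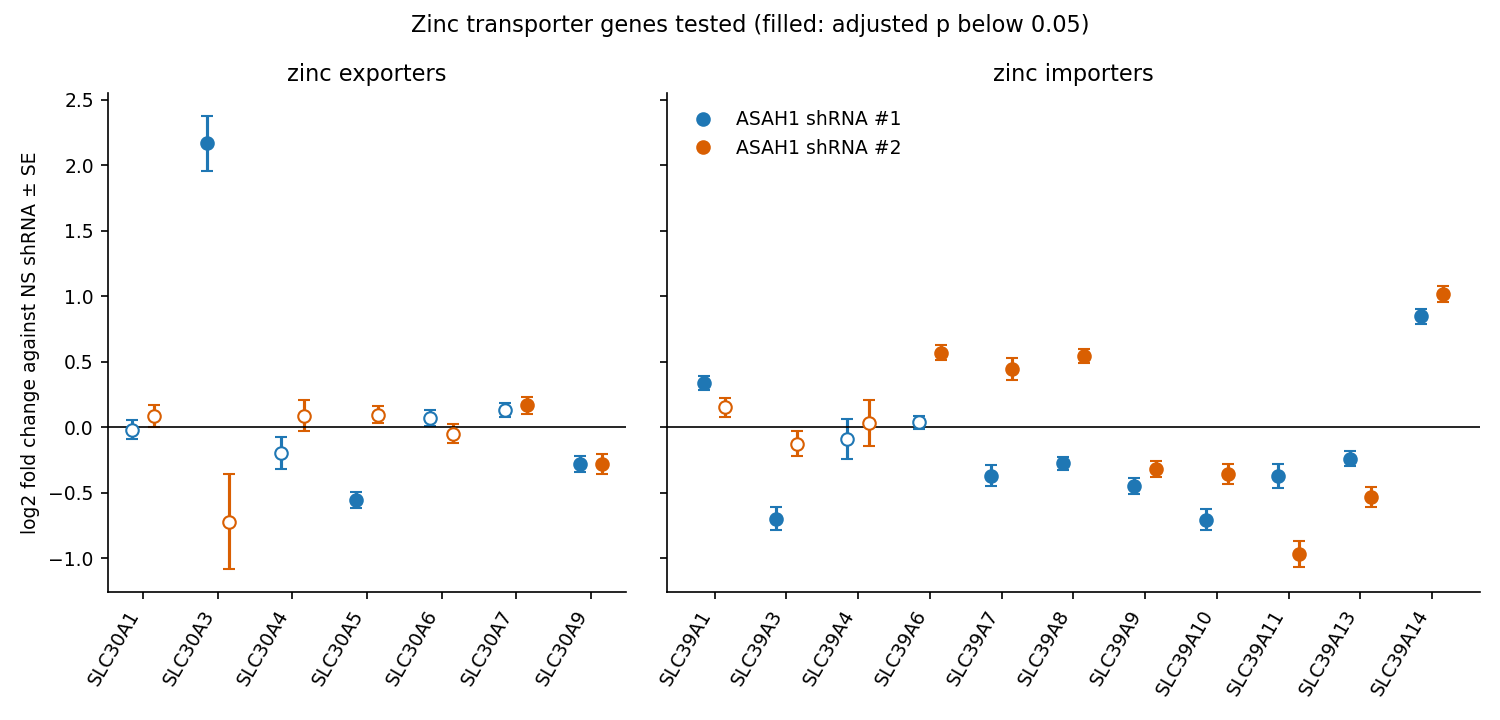
Log2 fold change against NS shRNA (vertical axis) of the 7 tested exporter genes (SLC30A) and the 11 tested importer genes (SLC39A) with ASAH1 shRNA #1 (blue) and ASAH1 shRNA #2 (orange). Bars are standard errors and filled points have an adjusted p below 0.05. SLC39A14 is at 0.84 and 1.02, SLC39A10 at −0.71 and −0.36, and SLC30A1 at −0.02 and 0.09.

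Metallothioneins also bind copper, and the copper handling list (11 genes, all tested) was read beside them. Of these, 2 rose and 2 fell with ASAH1 shRNA #1 (66.1% of all genes were called), and 4 rose and 1 fell with ASAH1 shRNA #2 (66.9%). The median log2 fold changes were −0.12 and 0.05. CCS, the copper chaperone of superoxide dismutase, fell with both hairpins (−0.71 and −0.81, adjusted p = 7.02e-05 and 2.58e-05, limma). SCO1, which delivers copper to cytochrome c oxidase, rose with both (0.63 and 0.69). SLC31A2 rose as well (0.26 and 0.35), and the copper exporter ATP7B had log2 fold changes of −0.40 and 0.31. Neither ATP7B call held throughout: it was lost for ASAH1 shRNA #1 without its replicate 1 (limma), and for ASAH1 shRNA #2 without NS shRNA replicate 2 (adjusted p = 0.0501) or under upper quartile scaling (adjusted p = 0.0524).

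The genes whose levels ran most like MT2A over the 9 libraries, among 11631 genes compared, were MRPL54 (Pearson r = 0.995), COQ4 (0.994) and CNIH3 (0.990). Like MT2A, MRPL54 was lowest with ASAH1 shRNA #2. Its geometric mean of CPM + 0.5 was 16.3, against 23.7 with NS shRNA and 23.6 with ASAH1 shRNA #1. For SLC30A1 they were RAB3GAP1 (0.883), ZNF407 (0.875) and DHX8 (0.873). The 9 points fall into 3 groups and share their libraries, so these coefficients describe the libraries only. Transcripts under 750 bases, the length class of the metallothioneins, had median log2 fold changes of 0.03 (526 genes) with ASAH1 shRNA #1 and 0.02 (532 genes) with ASAH1 shRNA #2.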

How the data were processed

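RNA from 9 libraries of MDA-MB-231 cells was read as 76-base single-end reads. Per the methods, the authors used Trimmomatic 0.36 for trimming, STAR 2.7.1a for alignment to hg38, htseq-count (reverse strand, UCSC annotation) for counting and DESeq2 1.28 for each hairpin apart. RSEM, TMM and edgeR are named in a second, conflicting account. The deposited signal is a count divided by a size factor per library. The deposited fold changes and p-values of the authors' own comparisons were not used. All per-sample columns were matched (0 unmatched), and 28 symbols turned into dates were read from the other table.

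All values were whole reads within 0.01 after removing the size factor (100%). Each hairpin was compared with NS shRNA by limma 3.58.1 with an intensity trend on log2(normalized count + 1), for genes averaging 10 or more, two-sided, with a Benjamini-Hochberg threshold of 0.05. Between the hairpins, edgeR 4.0.16 (quasi-likelihood, TMM) was run on the recovered reads, and its SE is the log2 ratio divided by the square root of F. R 4.3.3, DESeq2 1.42.0, Python 3.11.15, pandas 2.3.3, scipy 1.17.1 and matplotlib 3.10.9 were used. The fits were tested on simulated data with few changed genes, all well expressed. Error rates where most genes are called were therefore not checked. Results were recomputed with a pseudocount of 0.1 or 5, with no filter or a minimum mean of 50, without limma's trend, with upper quartile or TMM scaling, by edgeR or DESeq2 on recovered reads, by limma over 9 libraries together, with a replicate block, and with each library left out.

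Members and lists were chosen with earlier results of these data known. Genes named are the 9 members, ASAH1, list genes called with both hairpins (up to 6 per list, by mean absolute log2 fold change) and the 3 genes most correlated with MT2A and with SLC30A1 (mean of at least 100 reads). Markers of the line were a separate list. SLC30A3, SLC30A5, SLC30A7 and SLC39A9, which are list genes outside this rule, were named after their values were seen. An exact permutation test of 3 against 3 libraries cannot go below p = 0.1, so none is given. Positions are from GENCODE v44.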

Additional observations from a re-analysis of the deposited data

Results flagged for a closer look

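The response differed between the hairpins for 5 members, by edgeR's test of ASAH1 shRNA #2 against ASAH1 shRNA #1, in which 63.3% of all 14714 genes tested were called. The log2 ratio was −0.73 for MT2A, −0.59 for MT1E, −1.84 for MT1F and −1.16 for MT1X, so these 4 metallothionein genes were lower with ASAH1 shRNA #2. For SLC39A10 it was 0.34, higher with ASAH1 shRNA #2. Each group has 3 libraries from a single line.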

How the results depend on the processing

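The calls of MT2A, MT1E, MT1F and MT1X with ASAH1 shRNA #2, of MT1F with ASAH1 shRNA #1, and of MTF1 and SLC39A10 with both hairpins held their direction and side of the threshold in all 17 alternatives, as did the 5 calls between the hairpins in all 13. MT1X with ASAH1 shRNA #1 did not, so the number of members higher with ASAH1 shRNA #1 fell from 2 to 1 without the limma trend and with the replicate block, and ran from 1 to 2 when a library was left out. The number lower with ASAH1 shRNA #1 went from 2 to 3 with no filter on low values (MT1M added) and without NS shRNA replicate 3 or ASAH1 shRNA #1 replicate 3 (MT1E added). With ASAH1 shRNA #2 it went from 5 to 6 with no filter and by DESeq2 (MT1M added). The cause was not tested.

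Same-numbered libraries did not deviate together (correlations of −0.32 to −0.10), so the replicate numbers show no positive pairing. Libraries with different numbers had correlations of −0.11 to 0.27. The source of this pattern was not tested. The replicate block left 8237 genes called with ASAH1 shRNA #1 instead of 9479, and 8526 instead of 9538 with ASAH1 shRNA #2. With the block, MT1X had an adjusted p of 0.0735 with ASAH1 shRNA #1 (limma). On recovered reads, edgeR called 9537 and 9585 genes in these comparisons and DESeq2 9211 and 9351.

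Uncalled changes near 0 turned sign in places. With ASAH1 shRNA #1, MT2A became −0.077 without NS shRNA replicate 3 and −0.068 without ASAH1 shRNA #1 replicate 3, in a range of −0.077 to 0.088 over the libraries left out. SLC30A1 became 0.029 and 0.0089 without NS shRNA replicates 2 and 3, and 0.0050 without ASAH1 shRNA #1 replicate 3, in a range of −0.091 to 0.029. Upper quartile scaling gave −0.0020 for SLC30A1 with ASAH1 shRNA #2, and between the hairpins −0.016 for MTF1 and −0.027 for SCO1. SLC30A9 between the hairpins became 0.0073 without ASAH1 shRNA #1 replicate 1 and 0.052 without ASAH1 shRNA #2 replicate 3, in a range of −0.061 to 0.052. Depth limits MT1M and MT1G, at 22 and 0 reads over the NS shRNA libraries.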
